A study of Mus musculus with 6 samples.

Results

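The schlafen genes are a family of vertebrate genes, and 6 mouse members were examined: Slfn1, Slfn2, Slfn3, Slfn5, Slfn8 and Slfn9. They were taken by gene symbol from a table of 55536 genes, and the family was picked because Slfn2 is among the genes that fell most in this comparison. The values that follow for the 6 members in the treated and control cells are therefore a description and carry no test. RNA sequencing was done on primary OT-I T cells from mouse lymph nodes, of wildtype genotype, that had been cultured in complete RPMI medium. OT-I cells carry a transgenic T cell receptor that recognises a peptide of ovalbumin on MHC class I, so the line stands for CD8 T cells of a single specificity. One group of 3 libraries came from cells given DSF for 2 h, where DSF is read as the disulfiram of the series title, a thiol-reactive drug used against alcohol dependence. The other group of 3 libraries came from cells given DMSO, the solvent, for 2 h. The labels give no dose, no age of the animals and no state of activation, and they call the libraries biological replicates without saying whether they came from separate animals. All p-values below measure only the spread between these libraries.

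Library totals lay between 18082264 and 20951998 estimated counts for DSF and between 18528236 and 21893720 for DMSO. Pearson correlations of log2 CPM (counts scaled to library size) were 0.992 to 0.993 within groups and 0.984 to 0.987 between them, and no library stood apart. The T cell label was borne out by the markers. Cd3e averaged 218 ± 1.78 CPM with DSF and 229 ± 10.9 CPM with DMSO, and Cd8a averaged 350.0 ± 5.64 CPM with DSF and 411 ± 5.05 CPM with DMSO (SD, n = 3 each), whereas Cd4 averaged 1.63 ± 0.411 CPM with DSF and 1.22 ± 0.0300 CPM with DMSO.

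Schlafen proteins share an amino-terminal domain that folds around tRNA or related RNA and in several members cuts it. In mice, Slfn1 was named for slowing the growth of thymocytes, and a point mutation of Slfn2 (the elektra allele) makes T cells lose quiescence and die when they are stimulated. The short members Slfn1 and Slfn2 are little more than the core domain, Slfn3 is of intermediate length, and the long members Slfn5, Slfn8 and Slfn9 add a carboxy-terminal helicase-like part. Many schlafen genes respond to type I interferon, whose receptor signals through factors that include STAT2 and IRF9. In the deposited annotation the core domain was listed for all 6 members and a UvrD-type helicase domain for Slfn5, Slfn8 and Slfn9.

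The 6 genes lie together on chromosome 11 within 263.806 kb, at chr11:82951349-83215154 (GRCm38, GENCODE M21). In chromosomal order they are Slfn5, Slfn9, Slfn8, Slfn2, Slfn1 and Slfn3. Slfn8 and Slfn9 are read from the minus strand and the other 4 from the plus strand. The promoter windows of RefSeq on GRCm38.p6, which run from 250 bases before to 50 bases after an annotated start site, were found for all 6 and are shown because 2 motifs were divided between the long members and the other 3. Capitals mark ACTTCCTG, or CAGGAAGT on the other strand, the core bound by ETS factors. The first sequence is the whole window of Slfn2, chr11:83064862-83065161 on the plus strand, and the others are stretches of the windows of Slfn1 (chr11:83116721-83116778) and Slfn3 (chr11:83191245-83191302), both on the plus strand. All are written 5′ to 3′.
Slfn2: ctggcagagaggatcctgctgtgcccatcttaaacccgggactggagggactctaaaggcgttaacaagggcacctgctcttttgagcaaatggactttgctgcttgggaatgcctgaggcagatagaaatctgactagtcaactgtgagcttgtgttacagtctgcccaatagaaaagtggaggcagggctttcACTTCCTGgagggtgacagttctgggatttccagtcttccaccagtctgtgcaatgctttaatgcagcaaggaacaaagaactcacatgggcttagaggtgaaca
Slfn1: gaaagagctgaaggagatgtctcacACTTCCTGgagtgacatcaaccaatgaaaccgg
Slfn3: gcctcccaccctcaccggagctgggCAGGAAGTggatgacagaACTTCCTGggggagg

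In the next 3 sequences capitals mark a match, on either strand, to GAAA, any 2 bases and GAAA again, the core of the interferon-stimulated response element (ISRE). They come from the window of Slfn8, printed whole (chr11:83020761-83021060, minus strand), and from stretches of the windows of Slfn9 (chr11:82991841-82991900, minus strand) and Slfn5 (chr11:82951922-82951981, plus strand). The RefSeq window of Slfn5 begins inside the GENCODE gene, whose start lies at 82951349.
Slfn8: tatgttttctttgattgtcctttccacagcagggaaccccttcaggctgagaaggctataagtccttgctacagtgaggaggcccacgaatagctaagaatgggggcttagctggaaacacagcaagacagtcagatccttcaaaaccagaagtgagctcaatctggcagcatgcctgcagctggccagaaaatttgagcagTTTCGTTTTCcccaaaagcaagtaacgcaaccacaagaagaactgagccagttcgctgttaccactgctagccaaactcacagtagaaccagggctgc
Slfn9: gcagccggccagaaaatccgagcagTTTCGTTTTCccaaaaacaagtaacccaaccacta
Slfn5: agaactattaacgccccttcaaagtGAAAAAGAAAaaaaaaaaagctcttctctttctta

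The ISRE core was found in the windows of the long members, Slfn8 at -48, Slfn9 at -45 and Slfn5 at -155, counted from the start site to the first base of the match. It was not found in those of Slfn1, Slfn2 and Slfn3. A second RefSeq window of Slfn8, from another start site, holds the same match at -136. Of all 32851 RefSeq windows, 3.44% hold it on either strand. The ETS core showed the reverse division, with matches at -55 in Slfn2, at -74 in Slfn1 and at -60 and -42 in Slfn3, and none in Slfn5, Slfn8 and Slfn9. It stands in 3.33% of all windows. Of the schlafen genes that are no members, Slfn4 had an ETS core at -73 and no ISRE core, and Slfn14 had neither. This motif was chosen after the sequences had been read. The letters TTCNNNGAA of the gamma-activated site, an element known from interferon gamma responses, were found in 8.3% of all windows and in none of the 6. The ISRE and ETS letters do not overlap in any of these windows. A match is a description of the letters and not a measured binding site.

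**Figure D1:**
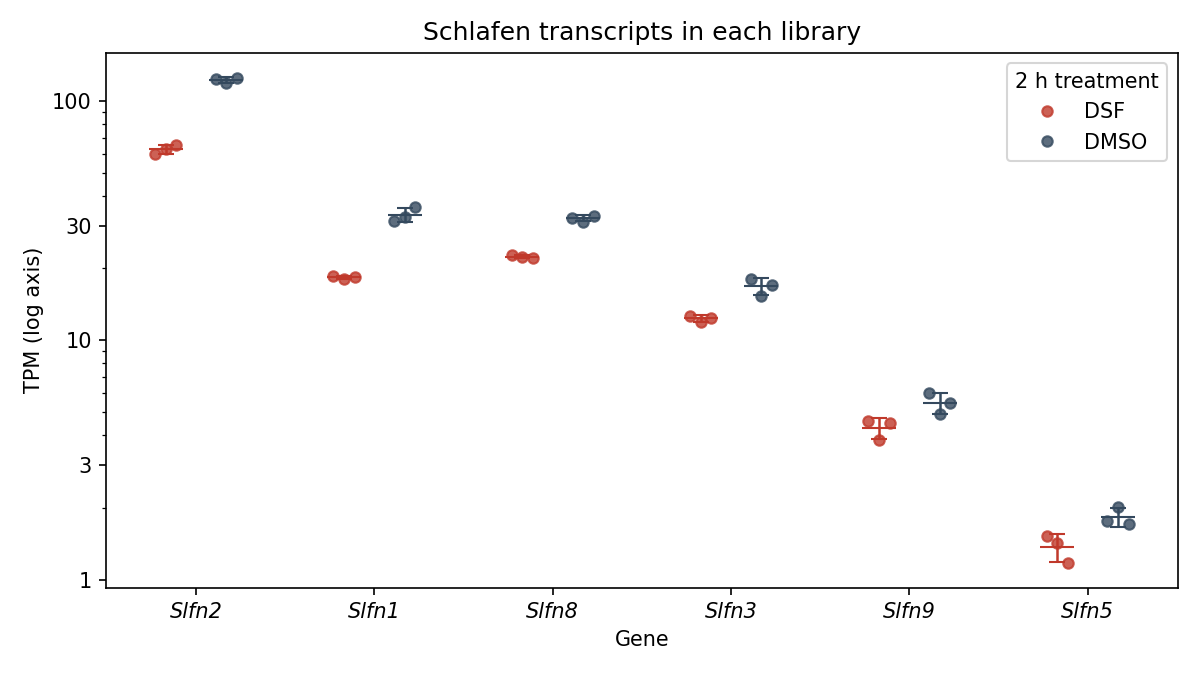
TPM of the 6 schlafen genes in each library on a log axis, with DSF (red) left of DMSO (dark blue) for each gene; points are the 3 libraries of a group, and the wide tick and bar give their mean ± SD. For every gene the 3 DSF libraries lie below the 3 DMSO libraries, and Slfn2 stands above the other 5 genes in both groups.

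All 6 members were lower with DSF, and the groups did not overlap for any of them on the scales of counts, CPM or TPM, as the plot of TPM by library shows. Among the 14318 genes that passed the filter on low counts, 17.9% were lower with DSF without overlap in CPM, and 35.4% did not overlap in either direction. All 6 members had passed that filter. Slfn2 and Slfn1 were lower by more than the other 4, which lay close together. TPM divide the counts by transcript length, so levels of different genes are set side by side on that scale. For Slfn5, Slfn8 and Slfn9 the deposited TPM are lower than counts over deposited length give, when set beside Slfn1, Slfn2 and Slfn3. The length behind the TPM is not known here, so levels of different genes are less certain than the change of a single gene. In such bulk RNA, fewer cells of a type and less RNA per cell cannot be told apart.

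Slfn2, the member needed for T cell quiescence in mice, was the most abundant schlafen transcript. It had 59.9, 62.7 and 65.6 TPM in the 3 DSF libraries, against 122.9, 118.4 and 125.0 TPM in the 3 DMSO libraries. Every DSF library was thus near the middle of the range between 0 and the DMSO level, and the spread within groups was a small part of the gap. In CPM the means were 70.8 ± 3.50 with DSF and 140.2 ± 3.96 with DMSO (SD, n = 3 each), and their ratio was 0.505. The fitted log2 fold change was -0.98 ± 0.05 (SE). In the order of fitted falls Slfn2 stood 83rd of 14318, so 0.573% of the genes tested had a larger fall.

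Slfn1, the other short member, which slows thymocyte growth when overproduced, followed it closely. It had 18.5, 18.1 and 18.3 TPM with DSF, against 31.6, 32.8 and 35.9 TPM with DMSO. The 3 DSF libraries were nearly equal, with a coefficient of variation of 1.26% in CPM against 4.73% for DMSO. The log2 fold change was -0.89 ± 0.06 (SE), with a 95% interval of -1.01 to -0.77, and that of Slfn2 was -1.07 to -0.89. Since the family was picked for the fall of Slfn2, intervals of members are given as description and are not compared. Slfn1 stood 106th in the order of falls.

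Slfn3, a member of intermediate length whose role in T cells is less settled, had 12.68, 11.92 and 12.38 TPM with DSF, against 18.04, 15.29 and 16.97 TPM with DMSO. The lowest DMSO library stood below the other DMSO libraries but still above all 3 with DSF. The log2 fold change of Slfn3 was -0.44 ± 0.08 (SE), with a 95% interval of -0.60 to -0.29.

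Of the long members, Slfn8 was the most abundant and the most even between libraries. It had 22.6, 22.3 and 22.1 TPM with DSF, against 32.3, 31.3 and 33.2 TPM with DMSO. Coefficients of variation in CPM were 2.06% with DSF and 1.94% with DMSO. Its log2 fold change was -0.48 ± 0.04 (SE), with a 95% interval of -0.55 to -0.40.

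Slfn9, the nearest relative of Slfn8 by transcript sequence among the members, had 4.6, 3.82 and 4.51 TPM with DSF, against 6.0, 4.9 and 5.45 TPM with DMSO. The gap between the highest DSF and the lowest DMSO library was small. The log2 fold change was -0.44 ± 0.09 (SE), with a 95% interval of -0.62 to -0.27. When the estimated counts of Slfn8 and Slfn9 were summed, since reads could be split between them, the sum averaged 150.5 ± 2.71 CPM with DSF and 209 ± 6.29 CPM with DMSO, a ratio of 0.719. The sum leaves out the pseudogene Slfn10-ps, with which reads of both genes could also be split.

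Slfn5, whose human counterpart is an interferon-induced nuclear protein, was the least abundant member. It had 1.52, 1.42 and 1.17 TPM with DSF, against 1.75, 2.02 and 1.70 TPM with DMSO. These levels rest on 100 to 128 estimated counts per DSF library and 141 to 195 per DMSO library. The log2 fold change was -0.47 ± 0.13 (SE), and the 95% interval of -0.73 to -0.21 was the widest of the 6.

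The edgeR quasi-likelihood test over all genes put all 6 members past a Benjamini-Hochberg adjusted p under 0.05, where 22.9% of genes tested were called in either direction and 11.3% were called lower. The family was picked from this contrast, so nothing is read from that count. With limma on log2 TPM, 4 of the 6 passed, and Slfn5 and Slfn9 did not. Limma called 1309 or 1297 genes, depending on the pseudocount, in place of 3276, and used its own filter. The limma counts given here and below have no share over all genes beside them, since the shares stated are those of edgeR. Without DMSO replicate 2, Slfn5 did not pass either, and 5 of the 6 did.

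In DMSO cells the order of levels in TPM was Slfn2, then Slfn1 and Slfn8, then Slfn3, Slfn9 and Slfn5. With DSF the order was Slfn2, Slfn8, Slfn1, Slfn3, Slfn9 and Slfn5. Slfn8 and Slfn1 exchanged places. With DSF all 3 values of Slfn8 (22.1 to 22.6 TPM) lay above all 3 of Slfn1 (18.1 to 18.5 TPM), whereas with DMSO the values of Slfn8 (31.3 to 33.2 TPM) overlapped those of Slfn1 (31.6 to 35.9 TPM). No other neighbours in either order overlapped. On the CPM scale, which is not divided by length, Slfn8 led with 134 ± 2.77 with DSF and 187 ± 3.63 with DMSO. Its deposited length is 4011 bases against 1664 for Slfn2, which does not by itself account for the TPM. Slfn1, of 1864 bases, averaged 23.7 ± 0.298 CPM with DSF and 44.0 ± 2.08 CPM with DMSO. By counts over the deposited length Slfn8 stands above Slfn1 in both groups, so the exchange of places rests on the deposited TPM.

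Summed over the 6 genes, schlafen transcripts came to 121 ± 2.33 TPM with DSF and 212 ± 6.73 TPM with DMSO (SD, n = 3 each), a ratio of 0.573. The make-up of that sum is given as description only, since the family was picked for the fall of Slfn2. A smaller share of Slfn2 with DSF, and a smaller ratio of Slfn2 to another member, partly follow from that choice. Slfn2 held 51.7 ± 1.502% of the sum with DSF and 57.6 ± 0.302% with DMSO. Slfn8 held 18.4 ± 0.547% with DSF and 15.2 ± 0.0476% with DMSO. The ratio of Slfn2 to Slfn8 was 2.81 ± 0.160 with DSF and 3.78 ± 0.0171 with DMSO. Such a ratio is taken within a library, so it does not move with library size. The sum, the shares and the ratio rest on the deposited TPM, whose length basis is not known here.

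The table holds other schlafen-named genes. The pseudogene Slfn10-ps, which lies between Slfn8 and Slfn2, averaged 16.5 ± 1.18 CPM with DSF and 16.1 ± 1.33 CPM with DMSO. Its log2 fold change was 0.03 ± 0.08 (SE) and it was not called (edgeR adjusted p = 0.867). In TPM it had 7.44, 6.70 and 6.48 with DSF, against 5.73, 6.39 and 6.45 with DMSO, which is higher with DSF in every library by a narrow margin. Its fitted sign changed between alternatives, with log2 fold changes from -0.03 to 0.15 over 13 of them and none called. Slfn4, a gene known from macrophages, had 3, 1 and 2 counts in DSF libraries and 12, 4 and 5 counts in DMSO libraries. It did not pass the filter and was not tested. A floor of 3 counts corresponds to 0.136 to 0.166 CPM in these libraries and covers counting error only.

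How far reads can be assigned to one schlafen gene varied within the family. Counts of Slfn1 and Slfn2 were whole numbers in all 6 libraries, whereas those of Slfn3, Slfn5, Slfn8 and Slfn9 were whole in 0 of the 6, as happens when a counting program shares reads between transcripts. Of all 50-base words in the annotated transcripts, 0.606% of those of Slfn1 and 4.27% of those of Slfn2 also stood in a transcript of another gene. The shares were 17.99% for Slfn3, 15.4% for Slfn8, 11.4% for Slfn9 and 3.59% for Slfn5. Slfn8 shared 10.7% of its words with Slfn10-ps and 9.82% with Slfn9, and Slfn9 shared 8.44% with Slfn10-ps and 6.24% with Slfn8. Slfn3 shared 7.97% with Slfn4 and 7.90% with Gm11427, an adjoining transcribed pseudogene named here after its values were seen. Gm11427 averaged 130 ± 4.42 CPM with DSF and 128 ± 8.69 CPM with DMSO, several times the level of Slfn3, and was not called (adjusted p = 0.729). The values of Slfn3, Slfn8 and Slfn9 are therefore less certain than those of Slfn1 and Slfn2. For Slfn5 the signs differed, since its counts were whole in 0 of the 6 libraries but its share of words was below that of Slfn2. Slfn5 shares 559 exonic bases with the antisense gene Slfn5os, and whether the libraries were stranded is not known here. Slfn5os had 2.95 counts in 1 DSF library and 0 in the other 5 libraries.

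**Figure D2:**
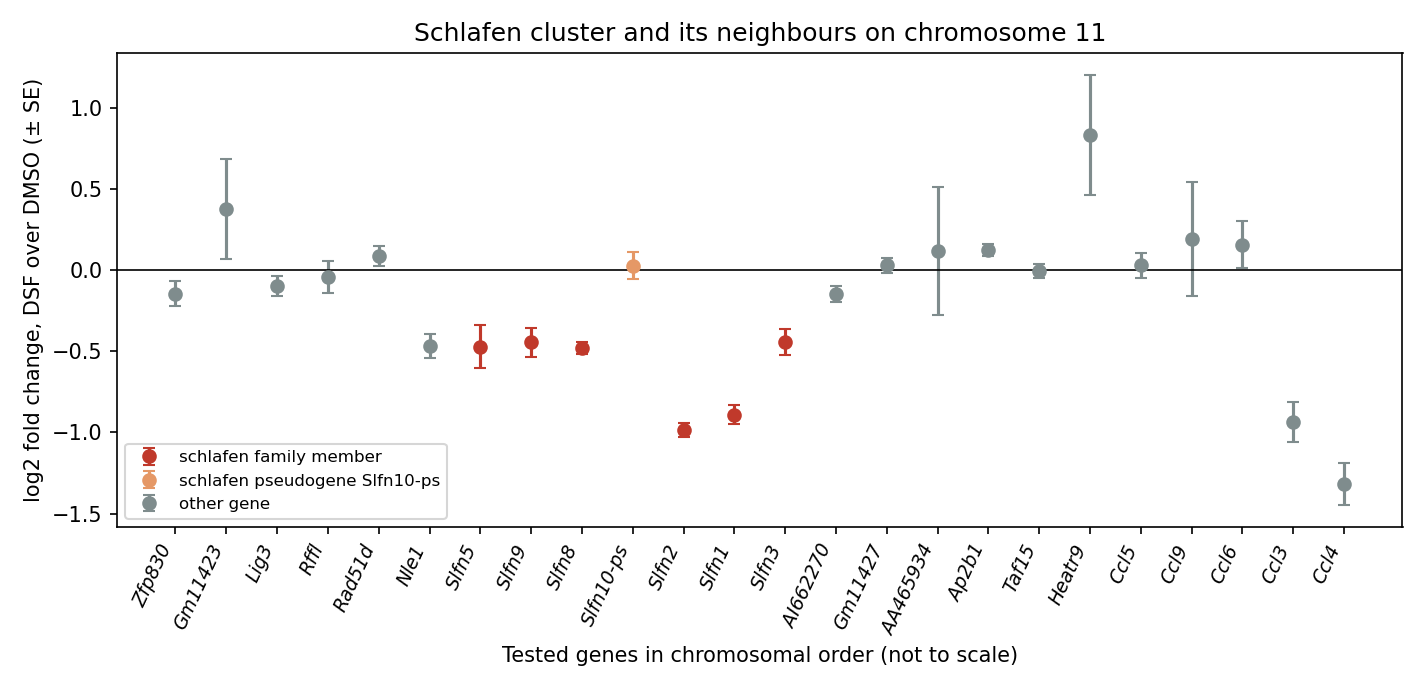
Log2 fold change (DSF over DMSO) ± SE from the edgeR fit for tested genes within 500 kb of the schlafen cluster, 1 neighbour not being shown, in chromosomal order and not to scale; red points are the 6 members, the orange point is Slfn10-ps and grey points are other genes. The members lie between -0.98 and -0.44, Slfn10-ps lies at 0.03, and Ccl3 and Ccl4 at the right end lie at -0.93 and -1.32.

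Around the cluster, of 57 other annotated genes within 500 kb, 18 were tested, and 1 rose, 5 fell and 12 did not pass the test, so that 33.3% were called against 22.9% of all genes tested. Of the 18, 2 were called with limma on log2 TPM. Their median log2 fold change was 0.01, against -0.00 for all 14318 genes tested. Nle1, a ribosome assembly factor and the nearest tested gene before Slfn5, fell to 15.6 ± 0.701 CPM with DSF, against 21.6 ± 0.211 CPM with DMSO (log2 fold change -0.47 ± 0.07, edgeR adjusted p = 1.3e-05). With limma on log2 TPM its adjusted p was up to 0.0659, the highest over 13 alternatives, of which 11 kept the call. AI662270, the nearest tested gene after Slfn3, had 76.4 ± 3.82 CPM with DSF and 84.5 ± 4.25 CPM with DMSO (log2 fold change -0.14, adjusted p = 0.0347). Its call was lost in 8 of 13 alternatives, with adjusted p from 0.0126 to 0.790, and its body overlaps that of Gm11427 on the same strand.

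Farther out, the chemokine genes Ccl4 and Ccl3, which activated CD8 T cells secrete, fell most. Ccl4 had 3.71, 5.07 and 3.79 CPM with DSF, against 10.5, 10.5 and 10.4 CPM with DMSO (log2 fold change -1.32 ± 0.13, edgeR adjusted p = 2.14e-09). Ccl3 averaged 5.36 ± 0.639 CPM with DSF and 10.2 ± 0.470 CPM with DMSO (log2 fold change -0.93 ± 0.12, adjusted p = 4.03e-07). Ap2b1, a clathrin adaptor subunit, had a log2 fold change of 0.13 ± 0.04 (adjusted p = 0.0123) and kept its call in 10 of 13, with adjusted p from 0.00199 to 0.167. Without DSF replicate 3, 3 rather than 6 of the neighbours were called.

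The interferon pathway that induces many schlafen genes was examined next, from lists of receptors and signalling factors and of target genes. Of 17 genes for receptors, kinases and transcription factors, all tested, 6 rose, 5 fell and 6 did not pass the test, where 11.6% of all genes tested rose and 11.3% fell. Of the 17, 6 passed with limma on log2 TPM. Their median log2 fold change was -0.00, as for all genes tested to 2 decimals. Ifnar1, a chain of the type I interferon receptor, rose to 265 ± 3.83 CPM with DSF, against 200.5 ± 3.27 CPM with DMSO (log2 fold change 0.40 ± 0.03, edgeR adjusted p = 7.67e-11).

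Stat2, a factor of the complex that binds the ISRE, averaged 75.5 ± 0.865 CPM with DSF and 75.5 ± 1.62 CPM with DMSO and was not called (edgeR adjusted p = 0.989). Irf9, the DNA-binding factor of that complex, averaged 65.6 ± 1.07 CPM with DSF and 60.7 ± 3.30 CPM with DMSO and was not called (adjusted p = 0.119). The adjusted p of Irf9 ran from 0.0298, without DMSO replicate 3, to 0.507 over 13 alternatives, and that alternative was the only one in which it was called. Irf8, a related factor, fell to 254 ± 5.58 CPM with DSF, against 331 ± 5.84 CPM with DMSO (log2 fold change -0.38 ± 0.03, adjusted p = 1.49e-10).

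Among 33 interferon-stimulated genes other than schlafens, 31 were tested, of which 19 fell, 0 rose and 12 did not pass the test. Over all genes tested, 11.3% fell and 11.6% rose. The median log2 fold change of the 31 was -0.29, and 29 of them were below 0, where 50.6% of all genes tested were. With limma on log2 TPM, which called fewer genes in all, 11 passed. Parp14, an ADP-ribosyltransferase, fell to 188 ± 3.65 CPM with DSF, against 260 ± 8.88 CPM with DMSO (log2 fold change -0.47 ± 0.04, edgeR adjusted p = 7.95e-12). Mx1, an antiviral GTPase, had 33.0, 35.6 and 35.7 CPM with DSF, against 54.1, 56.2 and 61.1 CPM with DMSO (log2 fold change -0.72 ± 0.06, adjusted p = 8.3e-12). Ifit2, which binds viral RNA, fell to 14.2 ± 1.15 CPM with DSF, against 25.2 ± 0.381 CPM with DMSO (log2 fold change -0.83 ± 0.08, adjusted p = 4.3e-10). The schlafen genes with an ISRE match in their window had log2 fold changes of -0.48, -0.47 and -0.44, and those without one had -0.98, -0.89 and -0.44. A link between the match and the change was not tested.

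**Figure D3:**
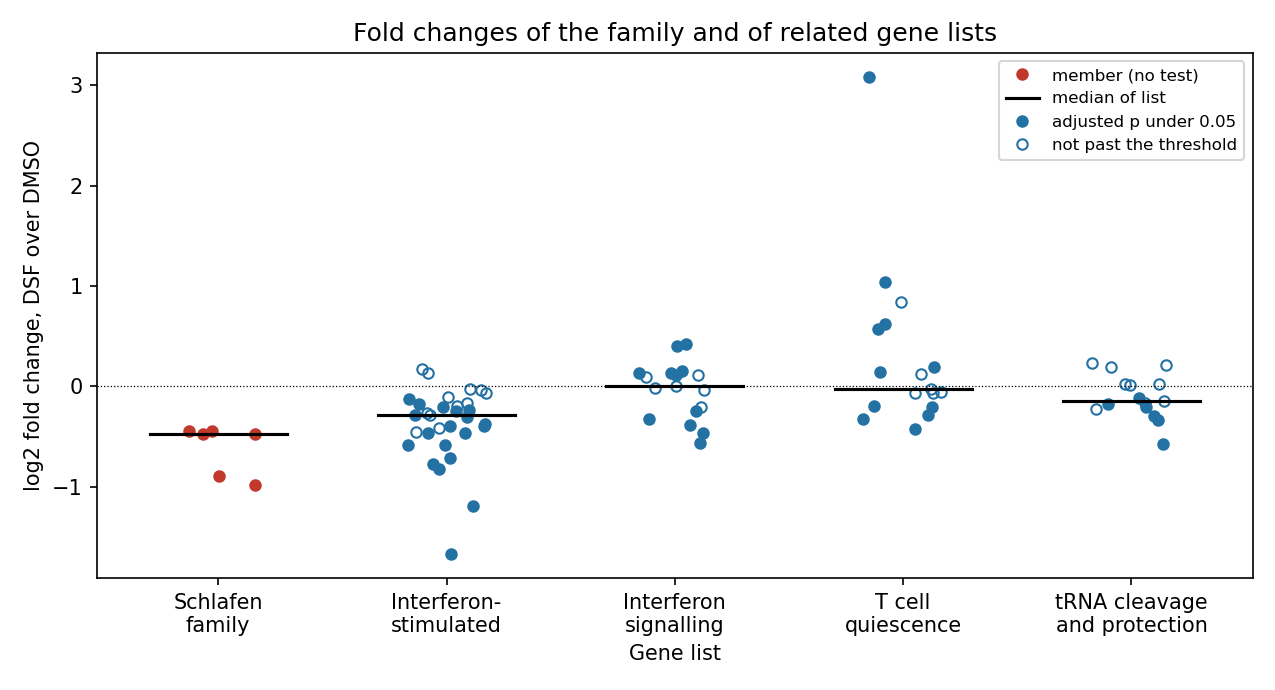
Log2 fold change (DSF over DMSO) of each tested gene in 5 lists; red points are the 6 schlafen members, which carry no test, filled blue points passed an edgeR adjusted p under 0.05, open points did not, and black bars are list medians. The medians are -0.48 for the schlafen family, -0.29 for interferon-stimulated genes, -0.00 for interferon signalling, -0.03 for T cell quiescence and -0.15 for tRNA cleavage and protection, and the point at 3.08 is Klf4.

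Slfn2 is also counted among the factors that keep T cells quiescent, so 17 other such factors were set beside it. All were tested, and 6 rose, 5 fell and 6 did not pass the test, where 11.6% of all genes tested rose and 11.3% fell. Their median log2 fold change was -0.03. The 3 with the smallest p are named here and all rose, whereas the 5 that fell had larger p and are not named. The list thus did not go in a single direction, either with Slfn2 or against it. Klf4, a transcription factor that restrains proliferation, had 42.2, 36.8 and 39.5 CPM with DSF, against 5.20, 4.73 and 4.06 CPM with DMSO (log2 fold change 3.08 ± 0.09, edgeR adjusted p = 2.42e-22). Vsir, which encodes the checkpoint receptor VISTA, rose to 128 ± 0.385 CPM with DSF, against 83.1 ± 3.27 CPM with DMSO (log2 fold change 0.63 ± 0.04, adjusted p = 7.96e-13). Tob1, an anti-proliferative protein that recruits the deadenylase complex, rose to 32.6 ± 2.65 CPM with DSF, against 15.8 ± 1.00 CPM with DMSO (log2 fold change 1.04 ± 0.07, adjusted p = 1.32e-12).

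In mouse T cells Slfn2 is known to bind tRNA and shield it from cleavage, and other family members cut it. Of 17 further genes for tRNA cleavage, splicing and protection, 15 were tested, of which 6 fell, 0 rose and 9 did not pass the test, where 11.3% of all genes tested fell and 11.6% rose. Their median log2 fold change was -0.15. Elac2, which trims the ends of precursor tRNA, fell to 54.1 ± 3.25 CPM with DSF, against 68.2 ± 1.31 CPM with DMSO (log2 fold change -0.33 ± 0.05, edgeR adjusted p = 7.58e-06). Nsun2, a methyltransferase whose mark protects tRNA from cleavage, fell to 218 ± 7.08 CPM with DSF, against 252 ± 4.81 CPM with DMSO (log2 fold change -0.21 ± 0.04, adjusted p = 3.26e-05). With limma on log2 TPM, 3 of the list passed.

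Across the 6 libraries, the genes whose log2 CPM ran most like that of Slfn2 among 10209 genes of at least 5 CPM were Noc3l, Mphosph9, Samd3, Cd8a and Gimap1os, with Pearson correlations of 0.998 to 0.999. Slfn1 ranked 59th in that order with a correlation of 0.991, and Slfn8 97th with 0.988. Slfn3 reached 0.948, Slfn9 0.891 and Slfn5 0.851. These correlations are descriptions of likeness over 6 libraries that fall into 2 groups, so they mostly carry the difference between the groups. Of the 5 genes, Samd3 had a log2 fold change of -0.87 ± 0.13 and Gimap1os one of -0.80 ± 0.10, close to that of Slfn1, whereas Mphosph9 had only -0.18 ± 0.06.

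**Figure D4:**
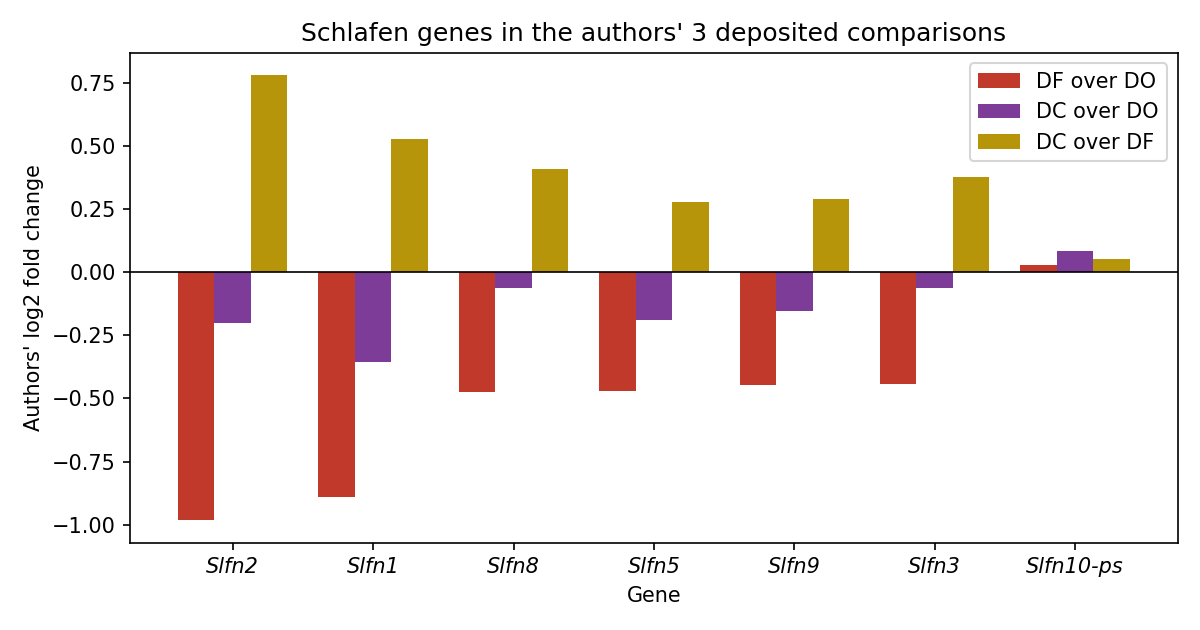
Log2 fold changes of the 6 schlafen genes and Slfn10-ps from the authors' deposited table for DF over DO (red), DC over DO (purple) and DC over DF (gold), where DF is read as DSF and DO as DMSO. For the 6 members DF over DO lies between -0.98 and -0.44, DC over DO between -0.36 and -0.06, and DC over DF between 0.28 and 0.78.

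A further condition, coded DC, appears only in a table of comparisons. What the code stands for is not in the labels, and its libraries were not analysed here. The 3 comparisons share samples in pairs, and the family was picked for low values in DF against DO. Both other comparisons use one of those groups, so their values are a description too, with no test and no count. In the authors' deposited table Slfn2 had log2 fold changes of -0.98 for DF over DO, -0.20 for DC over DO and 0.78 for DC over DF. Slfn1 had -0.89 for DF over DO, -0.36 for DC over DO and 0.53 for DC over DF in the authors' deposited table. Both were thus lower in DC than in DO and higher in DC than in DF.

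For the other members the authors' deposited table gave -0.06 for both Slfn3 and Slfn8, -0.15 for Slfn9 and -0.19 for Slfn5 in DC over DO. In DC over DF the authors' deposited table gave 0.41 for Slfn8, 0.38 for Slfn3, 0.29 for Slfn9 and 0.28 for Slfn5. The pseudogene Slfn10-ps had 0.08 for DC over DO and 0.05 for DC over DF in the authors' deposited table.

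Markers of other cells are given beside these levels, since Slfn4 is known from myeloid cells and Slfn genes are expressed in several leukocytes. Of 9 tested myeloid and dendritic cell markers 3 fell (Xcr1, Mpeg1 and Clec10a), and the summed list lay at 39.8 to 43.2 CPM with DSF and 49.5 to 50.3 CPM with DMSO. Siglech was at 0 in all 6 libraries and Clec9a at 0 in all but 1 DMSO library. Of 10 B cell markers 2 fell (Ighm and Igkc), and their sum lay at 217 to 226 CPM with DSF and 236 to 244 CPM with DMSO. The 6 CD8 T cell markers summed to 1642 to 1687 CPM with DSF and 1815 to 1849 CPM with DMSO, and 3 of them fell. For CD4 and regulatory T cells 2 of 5 tested markers rose and 1 fell, with sums of 60.4 to 66.5 CPM with DSF and 55.8 to 60.0 CPM with DMSO. No tested natural killer (0 of 2) or stromal marker (0 of 2) was called. Mpeg1, Clec10a and Igkc lost their calls in several alternatives. Without DSF replicate 3 their edgeR adjusted p were 0.246, 0.170 and 0.181. Ighm, Cd3g, Trac, Zbtb7b, Cxcr5 and Ikzf2 lost theirs with limma on log2 TPM, whereas Cd8a kept its call in all 13 alternatives. Natural killer markers summed to 6.04 to 8.37 CPM with DSF and 6.60 to 7.74 CPM with DMSO, and stromal ones to 31.1 to 35.9 CPM with DSF and 32.7 to 36.3 CPM with DMSO. Nearly all of the stromal sum was Pecam1, at 32.5 ± 2.30 CPM with DSF and 33.2 ± 1.40 CPM with DMSO. Most of the B cell sum was Ighm, at 175 ± 5.76 CPM with DSF and 192 ± 2.75 CPM with DMSO. Those 2 sums thus mostly give the level of a single gene. Over all genes tested, 11.6% rose and 11.3% fell. The part of these cells in the schlafen levels was not tested.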

How the data were processed

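Per the labels' protocols, total RNA was made into libraries with a kit of the SMARTER series for mRNA. The submitters' processing notes name the build GRCm38 (mm10). No aligner, counter, annotation release or strand setting is named there. The authors deposited expected counts per gene and library, not normalised, of which 12.1 to 12.9% were not whole within 0.001. The authors also deposited TPM per library and as group means, a length per gene, and their own log2 fold changes, linear ratios and p-values with adjusted values, in files titled as DESeq2 output. The linear ratio columns deposited by the authors were not used in the text.

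Columns carry letters and not treatments. The A columns averaged to the deposited TPM headed DO and the B columns to that headed DF in 55536 of 55536 genes within 0.0001 TPM. DO was read as DMSO and DF as DSF, which no label states outright. Columns per library left unused numbered 0.

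Expected counts were rounded, filtered with filterByExpr (14318 of 55536 genes passed, among them all 6 members), scaled by TMM (factors 0.995 to 1.01) and tested by robust quasi-likelihood in edgeR 4.0.16 (R 4.3.3), group being the single term. Whole counts had been planned for. A gene was called when its adjusted p (Benjamini-Hochberg) was under 0.05. Each standard error was approximated by dividing the size of the log2 change by the root of F, and the script was tested on simulated data. CPM are scaled by TMM. Members and lists were chosen with earlier results of these data known.

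Named genes were the 6 members, the 3 called genes of smallest p per list, Stat2, Irf9 and Ifnar1, the nearest tested and up to 6 called neighbours within 500 kb, and the 5 genes most like Slfn2 by Pearson correlation of log2 CPM (prior count 2). Some genes that this rule gave are not reported here. Symbols of predicted models were left out unless said otherwise. Motifs were searched in RefSeq promoter windows, and 50-base words in GENCODE M21 transcripts. Alternatives were DESeq2 1.42.0, its size factors, no filter, no robust estimation, a replicate block, limma 3.58.1 on log2(TPM + 1) or log2(TPM + 0.1) for genes over 1 TPM in at least 3 libraries, and leaving out each library.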

Additional observations from a re-analysis of the deposited data

How the results depend on the processing

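Of 165 values under alternatives, 149 kept their direction and stayed within the limits set for agreement with the reported value (1 SD between libraries for a member, 1.5 times for a count), and 16 moved. All 78 fold changes of the 6 members and all 9 of the sum of Slfn8 and Slfn9 stayed below 0. With limma on log2(TPM + 1), the genes called numbered 1309 in place of 3276, and with log2(TPM + 0.1) they numbered 1297. Log2 fold changes under log2(TPM + 1) were -0.83 for Slfn1, -0.25 for Slfn5, -0.51 for Slfn8 and -0.28 for Slfn9, and Slfn8 had -0.53 under log2(TPM + 0.1). A pseudocount shrinks the changes of low genes by construction. Under log2(TPM + 0.1), Slfn9 had -0.33 and Slfn5 had -0.39, against -0.44 and -0.47 in the edgeR fit. Slfn8 was farther from 0 on both TPM scales than its -0.48 in that fit. What part of these shifts comes from the deposited TPM was not tested. Both TPM scales called 6 interferon signalling genes, 11 interferon-stimulated genes, 3 tRNA genes and 2 neighbours.

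Leaving out 1 library at a time gave 2565 to 2972 genes called, with fewer samples in the fit. Log2 fold changes then ran from -1.02 to -0.95 for Slfn2, -0.91 to -0.85 for Slfn1, -0.50 to -0.37 for Slfn3, -0.49 to -0.46 for Slfn8, -0.54 to -0.34 for Slfn9, -0.57 to -0.40 for Slfn5 and -0.50 to -0.46 for the sum of Slfn8 and Slfn9. Calls ran from 8 to 11 for interferon signalling, 15 to 20 for interferon-stimulated genes, 10 to 11 for quiescence, 4 to 7 for tRNA genes and 3 to 6 for neighbours, with 3 when DSF replicate 3 was left out.

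Same-numbered libraries of the 2 groups correlated at 0.045, 0.035 and 0.055 in their deviations from group means, each highest with its own number, which is a hint from the data and no pairing in the labels. With the replicate number as a block, 3829 genes were called, with log2 fold changes of -0.99 for Slfn2, -0.89 for Slfn1, -0.44 for Slfn3 and Slfn9, -0.47 for Slfn5 and -0.48 for Slfn8. Under the block, calls were 11, 19, 11, 9 and 6 for interferon signalling, interferon-stimulated, quiescence, tRNA and neighbouring genes. Depth limits Slfn5 most, and Slfn4 was too low to test.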
